A study of Mus musculus with 12 samples.

Results

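Genes of mitosis and chromosome segregation were examined in cultured mouse mast cells, as a set of 45 named genes: cyclins and kinases of the G2 and M phases, the chromosomal passenger complex, kinetochore, spindle and cytokinesis genes, and the proliferation markers Mki67 and Top2a. All probe sets that the array annotation gives to these symbols were taken, a rule that reads gene symbols and no signal. The genes themselves were chosen with earlier results of these data known. The annotation names a probe set for 44 of the 45, out of 18193 genes with a probe set of their own, and these 44 genes have 100 of the 45101 probe sets. Ccnb1, which encodes cyclin B1, has no probe set named for it alone and was not analysed here.

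The mast cells came from C57BL/6 mice and were grown out of femoral marrow for 4 to 6 weeks, to a purity that the labels put above 99% by toluidine blue and by surface FceRIa and KIT. The IL3 group (6 arrays) was kept in interleukin 3 at 30 ng/ml. The IL3+SCF group (6 arrays) had the same interleukin 3 and in addition stem cell factor, the ligand of the receptor tyrosine kinase KIT, at 100 ng/ml unless indicated otherwise. All cells carried the same strain background, and the study compared the 2 cultures. Whether each replicate had its own culture or animal is not said in the labels, so a p-value here weighs a difference against a spread that may be technical. With 6 arrays in each group, precision is limited by their number.

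Array medians lay between 150 and 202 intensity units. The 8 mast cell markers examined (Kit, Fcer1a, Cpa3 and others) were above the dim range on all 12 arrays and summed to between 227000 and 264000 units in IL3 and between 233000 and 264000 with SCF, and 0 of the 8 passed the test. A signal is called dim here when it is at or below the 40th percentile of its array, which was 61.1 to 102 units. Some markers of other cells differed between the groups. The 5 basophil markers summed to 33900 to 40900 units in IL3 and 36400 to 38800 with SCF, with 1 lower and 2 higher. Of 6 stem and progenitor cell markers tested 1 was lower, and of 2 erythroid markers tested 1 was higher. The 12 monocyte and macrophage markers summed to 13100 to 17800 units in IL3 and 4220 to 5290 with SCF. Of 7 tested, Cx3cr1, Lyz1, Lyz2 and Fcgr1 were lower by 3.90, 1.96, 1.59 and 1.32 (log2). Cd68 was higher by 1.28, and Adgre1 and Ccr2 did not pass. Cx3cr1 averaged 6560 units in IL3 and 417 with SCF, and Fcgr1 was dim on 5 IL3+SCF arrays. Cd14, Mpeg1, Itgam and Ms4a6c were dim on all 12 arrays. The 13 neutrophil and granulocyte precursor markers summed to 5180 to 9500 and 4180 to 5750 units, and the ranges overlapped. Of the 13, 11 were dim on all 6 IL3+SCF arrays against 3 on all 6 IL3 arrays. Ctsg, the brightest of them, averaged 4580 units in IL3 and 4710 with SCF, and its log2 change of 0.13 did not pass. S100a8 and S100a9 ranged from 17.2 to 2150 and from 51.3 to 3470 units over the IL3 arrays. The 6 megakaryocyte markers summed to 12200 to 16200 units in IL3 and 8340 to 10800 with SCF. Of 3 tested, Itgb3 was lower by 1.69 (log2), Vwf was higher by 0.42 and Gp9 did not pass. Ighm of B cells, Pdgfrb of stroma and Nkg7 of NK cells were lower by 2.55, 2.30 and 1.40. These 3 were dim on 4, 5 and 4 IL3+SCF arrays, and Nkg7 also on 2 IL3 arrays. No other B, T or NK cell marker was bright enough to be tested, and the stromal markers Col1a1 and Dcn did not pass. The part of these cells in the results that follow was not tested.

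In mitosis the chromosomes are condensed, attached to a bipolar spindle through their kinetochores, and pulled apart once every kinetochore is attached. CDK1 with an A or B type cyclin drives entry, Polo and Aurora kinases build and correct the spindle, and the checkpoint kinases BUB1, BUBR1 and TTK hold anaphase back until the anaphase-promoting complex with its activator CDC20 marks cyclin B and securin for destruction. Transcripts of most of these genes accumulate in G2 and M and are low in cells that have left the cycle, and many of the genes are repressed in quiescent cells by the DREAM complex and activated by B-MYB and FOXM1 through a short promoter element, the cell cycle genes homology region (CHR). Mast cells in interleukin 3 divide in culture, and stem cell factor is known both as a growth and survival factor and as a maturation factor for them.

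Because many genes of the group share such promoter elements, the windows from 250 bases before to 50 bases after the start of transcription were read from RefSeq (GRCm38.p6) for 39 of the 45 genes. Shown are the 4 genes with the largest changes, by the probe set used, among those with 1 window (Hmmr, Birc5, Nuf2 and Cdca3), the catalytic kinase of mitotic entry (Cdk1) and a gene with a small change (Cenpa). Capitals mark the CHR letters TTTGAA, the CCAAT box letters CCAAT and, in Cdk1, the E2F letters TTTCGCGC, each on either strand, so that a CCAAT box on the other strand reads ATTGG.
Hmmr promoter (chr11:40733388-40733687, - strand): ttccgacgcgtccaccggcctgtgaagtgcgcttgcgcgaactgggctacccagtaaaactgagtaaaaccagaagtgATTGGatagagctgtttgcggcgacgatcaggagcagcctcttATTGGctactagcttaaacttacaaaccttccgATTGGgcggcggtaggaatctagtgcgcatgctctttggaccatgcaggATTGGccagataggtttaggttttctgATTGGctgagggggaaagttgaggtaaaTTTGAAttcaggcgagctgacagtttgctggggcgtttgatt
Cdca3 promoter (chr6:124829926-124830225, + strand): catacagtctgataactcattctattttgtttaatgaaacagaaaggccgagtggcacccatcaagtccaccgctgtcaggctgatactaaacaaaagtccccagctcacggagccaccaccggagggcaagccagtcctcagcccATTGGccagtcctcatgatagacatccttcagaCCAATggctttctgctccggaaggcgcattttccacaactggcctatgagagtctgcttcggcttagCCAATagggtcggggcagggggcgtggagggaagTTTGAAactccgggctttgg
Cdk1 promoter (chr10:69352863-69353162, - strand): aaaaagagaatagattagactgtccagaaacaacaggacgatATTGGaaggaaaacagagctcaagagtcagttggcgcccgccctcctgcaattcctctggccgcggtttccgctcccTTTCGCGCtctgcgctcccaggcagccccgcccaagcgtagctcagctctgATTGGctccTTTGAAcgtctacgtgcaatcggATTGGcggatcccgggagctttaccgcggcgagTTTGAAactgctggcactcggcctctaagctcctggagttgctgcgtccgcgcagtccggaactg
Cenpa promoter (chr5:30666636-30666935, + strand): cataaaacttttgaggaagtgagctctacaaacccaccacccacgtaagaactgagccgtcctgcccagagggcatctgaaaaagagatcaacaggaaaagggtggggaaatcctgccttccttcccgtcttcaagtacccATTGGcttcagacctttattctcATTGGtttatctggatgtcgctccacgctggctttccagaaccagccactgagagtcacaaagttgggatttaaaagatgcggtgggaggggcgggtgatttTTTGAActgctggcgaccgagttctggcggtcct
Birc5 promoter (chr11:117848987-117849286, + strand): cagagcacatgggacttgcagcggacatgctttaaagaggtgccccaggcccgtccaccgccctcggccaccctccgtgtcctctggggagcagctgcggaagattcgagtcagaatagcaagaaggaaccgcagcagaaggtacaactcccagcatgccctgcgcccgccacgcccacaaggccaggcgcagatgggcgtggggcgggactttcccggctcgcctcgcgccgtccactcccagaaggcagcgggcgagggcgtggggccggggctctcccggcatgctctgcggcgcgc
Nuf2 promoter (chr1:169531415-169531714, - strand): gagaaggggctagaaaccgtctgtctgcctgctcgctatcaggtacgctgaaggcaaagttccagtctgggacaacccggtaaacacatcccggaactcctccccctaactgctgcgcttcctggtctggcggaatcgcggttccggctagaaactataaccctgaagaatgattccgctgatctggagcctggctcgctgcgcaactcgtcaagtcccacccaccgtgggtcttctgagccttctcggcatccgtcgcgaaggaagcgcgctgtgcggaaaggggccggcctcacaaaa

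The first of these windows, of Hmmr, holds 5 CCAAT boxes and 1 CHR, and that of Cdca3 holds 3 and 1. The Cdk1 window has 2 CHR matches, 3 CCAAT boxes and 1 E2F match, and Cenpa has 1 CHR and 2 CCAAT boxes. None of these letters is found in the windows of Birc5 and Nuf2. Over all 43 windows of the 39 genes, CHR letters occur in 72.1% and CCAAT letters in 81.4%, against 12.2% and 37.9% of 11896 windows of genes tested on these arrays and 17.9% and 37.4% of all 32851 windows in the table. Both together occur in 62.8% of the windows of these genes and in 4.86% and 6.95% of the other 2 sets. The 4 E2F forms searched (TTTCGCGC, TTTGGCGC, TTTCCCGC, TTTGCCGC) occur in 4.65%, against 3.93% and 2.26%. By gene, 29 have a CHR match, 31 a CCAAT match, 25 both, and Birc5, Melk, Nuf2 and Nusap1 have no match to any motif searched. Of the 29, 26 have a CHR match that begins at or after base -50. These matches are a description of letters: CCAAT has 5 letters and occurs often, and no binding was measured. Windows of Kif20a, Ccna2, Tpx2, Pbk, Incenp and Aurkb were not analysed here.

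**Figure D1:**
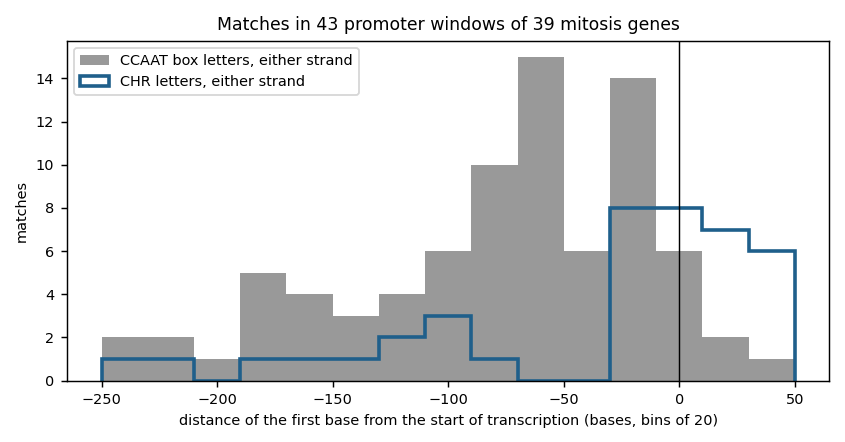
Number of CHR matches (blue outline) and CCAAT matches (grey) by the distance of their first base from the start of transcription, in bins of 20 bases, over 43 windows of 39 mitosis genes. CHR matches gather between 30 bases before the start and the end of the window, and CCAAT matches lie mostly within the 100 bases before the start.

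With SCF the mitosis genes were lower almost without exception. Of 43 genes tested, 41 were lower (limma, Benjamini-Hochberg adjusted p below 0.05) and 0 higher, and Kif23 and Kif15 did not pass. The 41 include Cenpf, which passed the signal filter only through the IL3 arrays. Over all 11429 genes tested, 16.6% were lower and 18.9% higher. By the probe set used for each gene, 31 of the 43 were at least 2-fold lower, against 2.94% of all genes, and 6 were at least 4-fold lower. The median log2 change of the 43 was -1.46, with a range from -2.44 to 0.10, and that of all genes was 0.02, with 95% of all genes between -1.15 and 0.86. In 34 of the 43, each IL3+SCF array lay below each IL3 array, which held for 9.12% of all genes. In bulk samples, fewer cells in mitosis and less of these RNAs per cell cannot be told apart.

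**Figure D2:**
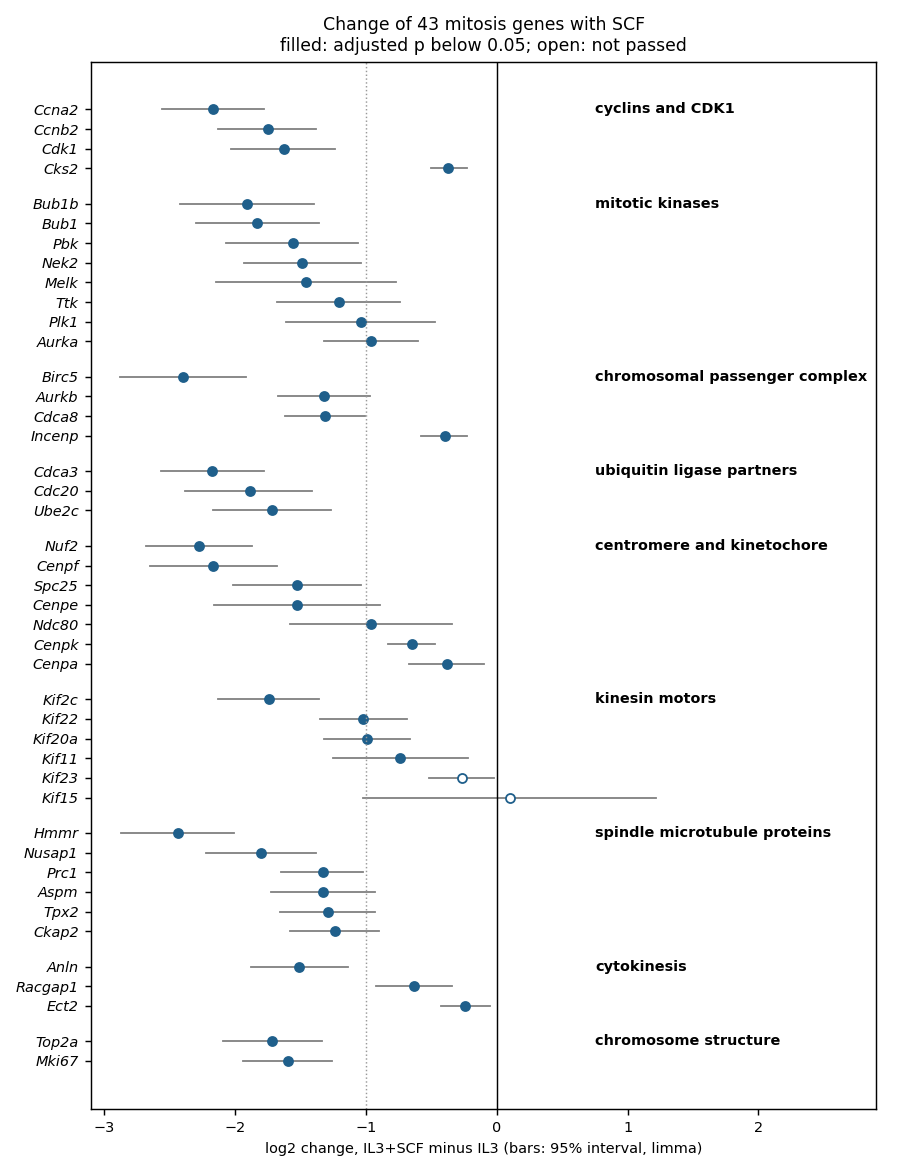
Log2 change (IL3+SCF minus IL3) of 43 mitosis genes grouped by role, with 95% intervals from limma; filled points passed (adjusted p below 0.05), open points did not, and the dotted line marks a 2-fold fall. The points lie left of 0 for 42 genes, from Hmmr at -2.44, and Kif15 at 0.10 has the widest interval (-1.02 to 1.22).

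The cyclin and CDK1 genes were all lower, without overlap between the groups. Cyclin A2 (Ccna2), which partners CDK2 in S phase and CDK1 in G2, gave 1030 units on the lowest, 1470 at the median and 1910 on the highest of the IL3 arrays, and 215, 326 and 437 with SCF. The highest IL3+SCF array thus stayed under the lowest IL3 array, and the mean with SCF was 21.7% of the IL3 mean. Ccna2 fell by 2.17 on the log2 scale (SE 0.18, adjusted p = 2.23e-06). For cyclin B2 (Ccnb2), a partner of CDK1, the IL3 arrays gave 405, 693 and 1000 units (lowest, median, highest) and the IL3+SCF arrays 152, 187 and 235. The kinase itself, Cdk1, gave 755, 1110 and 1380 against 230, 329 and 456. Both fell, by 1.75 (SE 0.17, adjusted p = 1.1e-05) and 1.63 (SE 0.18, adjusted p = 2.31e-05). Cks2, a small protein that binds CDK1 and guides it to its substrates, differed least: 14700, 15900 and 18100 units in IL3 against 11500, 12400 and 13100, a fall of 0.37 (SE 0.06, adjusted p = 0.000593) to 77.3% of the IL3 mean. Its other probe set fell by the same 0.37.

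All 8 mitotic kinase genes were lower, 7 of them at least 2-fold. BubR1 (Bub1b), the checkpoint protein that restrains CDC20, had 228, 281 and 695 units in IL3 and 68.1, 75.5 and 112 with SCF. Bub1, which recruits checkpoint proteins to kinetochores, had 198, 314 and 452 against 41.4, 78.4 and 113. The groups did not overlap for either gene, and the falls were 1.91 (SE 0.24, adjusted p = 5.62e-05) and 1.83 (SE 0.22, adjusted p = 4.31e-05). These 2 genes were dim on 4 and 3 of the 6 IL3+SCF arrays. Pbk, a kinase active in mitosis, gave 306, 480 and 696 units in IL3 and 99.2, 150 and 243 with SCF (dim on 1 array), a fall of 1.56 (SE 0.23, adjusted p = 0.000243). Nek2, which separates the centrosomes, gave 113, 172 and 262 against 34.1, 46.1 and 84.7 (dim on 5), a fall of 1.49 (SE 0.20, adjusted p = 0.000125). Ttk (MPS1), the kinase at the head of the spindle checkpoint, gave 135, 230 and 297 against 45, 86.8 and 119 (dim on 3), a fall of 1.21 (SE 0.22, adjusted p = 0.000917). No IL3+SCF array reached the IL3 range for these 3 genes either. The other kept probe set of Ttk gave -0.78, with overlap, and did not pass. With its kept probe sets averaged, the change of Ttk was -0.99 and passed.

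For the other 3 kinases the groups overlapped. Melk, a kinase expressed in dividing cells, gave 97.4, 185 and 328 units in IL3 and 25.6, 56.1 and 105 with SCF (dim on 5 arrays), and fell by 1.46 (SE 0.32, adjusted p = 0.00331). Plk1, the Polo kinase of centrosome maturation and mitotic entry, gave 308, 177, 201, 79.5, 229 and 165 units on IL3 replicates 1 to 6 and 43.1, 95.7, 90, 97.8, 104 and 64 on IL3+SCF replicates 1 to 6. Only IL3 replicate 4 fell inside the range of the IL3+SCF arrays. Plk1 fell by 1.04 (SE 0.26, adjusted p = 0.0083), and 3 of its IL3+SCF signals were dim. Aurora A (Aurka), which acts at the spindle poles, gave 175, 273 and 312 units in IL3 and 86.3, 122 and 176 with SCF (dim on 1 array), a fall of 0.96 (SE 0.17, adjusted p = 0.000721).

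The chromosomal passenger complex, which corrects faulty attachments and later directs cytokinesis, was lower in all of its 4 subunits. Survivin (Birc5), the subunit that targets the complex to the centromere, gave 1610, 2550 and 3830 units in IL3 and 317, 449 and 693 with SCF. No array of one group reached the other, and the mean with SCF was 18.6% of the IL3 mean, a fall of 2.40 (SE 0.22, adjusted p = 5.85e-06). Its catalytic subunit Aurora B (Aurkb) gave 250, 384 and 526 units against 92, 148 and 164, a fall of 1.32 (SE 0.16, adjusted p = 5.03e-05). Borealin (Cdca8) fell by 1.31, from a median of 2660 to 1050 units, and the scaffold Incenp by 0.40 (SE 0.08, adjusted p = 0.00189), to 75.3% of the IL3 mean. The 2 other kept probe sets of Incenp gave changes of -0.28, which passed, and -0.18, which did not.

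Partners of ubiquitin ligases were among the larger falls. Cdc20, the activator of the anaphase-promoting complex, gave 338, 505 and 890 units in IL3 and 88.4, 132 and 194 with SCF (dim on 1 array). Cdca3, which takes part in the destruction of the mitotic inhibitor WEE1, gave 664, 1030 and 1610 against 177, 204 and 281. Ube2c, the ubiquitin-conjugating enzyme of the complex, gave 984, 1460 and 2450 against 356, 420 and 683. The IL3+SCF arrays were below all IL3 arrays for each gene, with falls of 1.89 (SE 0.22, adjusted p = 3.77e-05) for Cdc20, 2.18 (SE 0.18, adjusted p = 2.59e-06) for Cdca3 and 1.72 (SE 0.21, adjusted p = 4.85e-05) for Ube2c. The other kept probe set of Cdc20 fell less, by 0.88, with overlap between the groups. When any one IL3 array was left out, this other probe set became the one with the higher mean, and the change of Cdc20 was then between -0.99 and -0.80. With the first probe set held, an alternative chosen after seeing the data, leaving out each of the 12 arrays gave -2.02 to -1.74, and all 12 passed.

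The 7 centromere and kinetochore genes were all lower, 4 of them at least 2-fold. Nuf2, a subunit of the NDC80 complex that holds the microtubule end, gave 264, 479 and 674 units in IL3 and 61.9, 79.9 and 112 with SCF (dim on 4 arrays), a fall of 2.28 (SE 0.19, adjusted p = 2.16e-06) to 17.5% of the IL3 mean. Cenpf, a large kinetochore protein that accumulates in G2, gave 119, 281 and 379 units against 34.3, 46.8 and 62.1. It was the only one of the 43 dim on all 6 IL3+SCF arrays, where only a bound can be given: it was at least 2.79-fold lower, and the fitted fall was 2.17 (SE 0.22, adjusted p = 1.47e-05). Cenpf passed the filter only through the IL3 arrays, where it was high, so its adjusted p is no separate support for the fall. Spc25, in the centromere-facing side of the NDC80 complex, fell by 1.53, from a median of 597 to 173 units. The kinetochore motor Cenpe gave 146, 290 and 475 units against 45.1, 101 and 129 (dim on 3 arrays), also a fall of 1.53 (SE 0.29, adjusted p = 0.00146). Neither gene's groups overlapped.

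Among the remaining kinetochore genes the changes were smaller. Ndc80, the partner of Nuf2 in the same complex, gave 115, 168 and 257 units in IL3 and 42.1, 80.7 and 181 with SCF. IL3+SCF replicates 3 and 4 lay within the IL3 range, and 3 of the IL3+SCF signals were dim. The fall of Ndc80 was 0.96 (SE 0.29, adjusted p = 0.0199). Cenpk, of the inner kinetochore network, fell by 0.65 (SE 0.08, adjusted p = 6.69e-05) with no overlap, from a median of 927 to 539 units. Cenpa, the histone H3 variant that marks the centromere, gave 686, 877 and 1300 units against 585, 689 and 773, so that the groups overlapped. It fell by 0.38 (SE 0.13, adjusted p = 0.0393). With no filter the change was the same and the call was lost (adjusted p = 0.0762), and its 2 other probe sets gave -0.78, which passed, and -0.73, which did not.

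Kinesin genes were the least uniform role group by calls, with 4 of 6 lower and a median log2 change of -0.86. MCAK (Kif2c), which takes microtubule ends apart, gave 202, 237 and 327 units in IL3 and 35.5, 66.1 and 98.8 with SCF, and was dim on 5 of the 6 IL3+SCF arrays. Kif22, a motor on chromosome arms, gave 719, 1020 and 1090 against 303, 478 and 559. The groups did not overlap, and the falls were 1.74 (SE 0.18, adjusted p = 1.34e-05) for Kif2c and 1.02 (SE 0.15, adjusted p = 0.000251) for Kif22. The other kept probe set of Kif2c, also dim on 5 of 6, fell by 0.63. The 2 others of Kif22 passed with smaller falls, of 0.71 without overlap and 0.63 with overlap. A fall of Kif22 by at least 2-fold thus rests on the probe set used. Kif20a, a motor of the central spindle, fell by 0.99 (SE 0.15, adjusted p = 0.000271), from a median of 375 to 188 units. For Eg5 (Kif11), the motor that pushes the spindle poles apart, the probe set with the highest mean fell by 0.74 (SE 0.24, adjusted p = 0.0283) with overlap, while its 2 others fell by 1.59 and 1.64 without overlap. The last of these was dim on all 6 IL3+SCF arrays, so that it was at least 2.29-fold lower. The call of the first was lost with no filter (adjusted p = 0.0548). Without IL3+SCF replicate 2, 3, 4, 5 or 6 the second had the highest mean, and the change of Kif11 was then -1.63 to -1.52. With the first probe set held, leaving out each of the 12 arrays gave -0.95 to -0.64, and 5 of the 12 passed.

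MKLP1 (Kif23), the motor subunit of centralspindlin at the midbody, gave 486, 588 and 826 units in IL3 and 446, 501 and 549 with SCF. The groups overlapped, and the log2 change of -0.27 (SE 0.12) had an adjusted p of 0.0928. Its other kept probe set gave -0.16 and did not pass. Without IL3 replicate 4, the change of Kif23 was -0.33 and passed (adjusted p = 0.0432). Kif15, a motor that backs up Eg5, gave 263, 255, 60.7, 23.5, 300 and 232 units on IL3 replicates 1 to 6 and 75.4, 184, 186, 93.3, 233 and 253 on IL3+SCF replicates 1 to 6. IL3 replicates 3 and 4 were dim and the other 4 high, so the IL3 arrays enclosed the IL3+SCF arrays. The log2 change was 0.10 (SE 0.52, adjusted p = 0.904), and it turned to -0.31 without IL3 replicate 4, to -0.12 without IL3 replicate 3, to -0.01 without IL3+SCF replicate 5 and to -0.03 without IL3+SCF replicate 6, again not passing. Kif4, a chromosome and midzone motor, was above the dim range on too few arrays to be tested: it gave 52.2, 146 and 190 units in IL3 and 3.58, 47.8 and 62.9 with SCF, dim on 1 and 6 arrays. It was at least 1.43-fold lower, and with no filter it fell by 1.60 (adjusted p = 0.014).

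**Figure D3:**
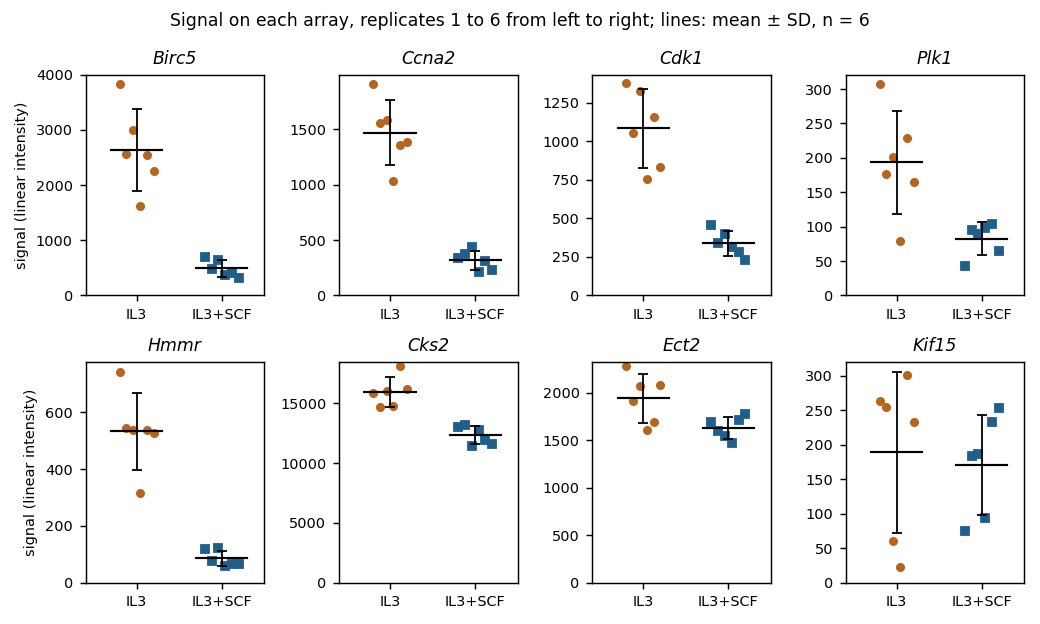
Linear signal on each of 6 IL3 arrays (orange circles) and 6 IL3+SCF arrays (blue squares) for 8 mitosis genes, replicates 1 to 6 from left to right, with the mean and SD; each panel has its own axis from 0. Birc5, Ccna2, Cdk1, Hmmr and Cks2 show no overlap, Plk1 overlaps through IL3 replicate 4, and Ect2 and Kif15 overlap.

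Each of the 6 genes for spindle microtubule proteins was lower by the probe set used, at least 2-fold and without overlap. Hmmr, a protein of the spindle poles that also binds hyaluronan, had the largest fall by the probe sets used. When the kept probe sets of a gene were averaged, its change was -1.74, smaller than the -2.40 of Birc5, the -2.28 of Nuf2 and the -2.18 of Cdca3. Its signals were 315, 538 and 743 units in IL3 and 60.2, 72.6 and 122 with SCF, dim on 4 IL3+SCF arrays, and the mean with SCF was 16% of the IL3 mean (a fall of 2.44, SE 0.20, adjusted p = 2.16e-06). Its 2 other kept probe sets fell by 1.40 and 1.38. Nusap1, which bundles microtubules near the chromosomes, gave 715, 969 and 1620 units against 232, 258 and 398, a fall of 1.80 (SE 0.19, adjusted p = 1.85e-05). Prc1, which cross-links the midzone, Aspm, which focuses the spindle poles, and Tpx2, which activates Aurora A, fell by 1.33, 1.33 and 1.29. Their median signals in IL3 were 2300, 586 and 1170 units, and with SCF 970, 209 and 444. The spindle protein Ckap2 gave 165, 267 and 361 units against 76.2, 99.4 and 124 (dim on 1 array), a fall of 1.24 (SE 0.16, adjusted p = 6.55e-05). The 2 probe sets of Prc1, which were fitted separately, fell by 1.33 and 1.37.

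In cytokinesis, anillin (Anln), which organises the contractile ring, gave 247, 315 and 455 units in IL3 and 78.1, 91.7 and 160 with SCF (dim on 3 arrays). The groups did not overlap, and the fall was 1.51 (SE 0.17, adjusted p = 3.05e-05). Racgap1, the partner of Kif23 in centralspindlin, gave 257, 284 and 478 against 154, 198 and 216, a fall of 0.63 (SE 0.13, adjusted p = 0.00285), and its other kept probe set fell by 1.09. That probe set had the higher mean without IL3+SCF replicate 1 or 6, where the change of Racgap1 was -1.06 and -1.08. With the first probe set held it was -0.68 to -0.51 over the 12 arrays left out in turn, and all 12 passed. Ect2, the exchange factor that switches on RhoA at the equator, gave 1600, 1990 and 2280 against 1470, 1640 and 1770. The groups overlapped, and the fall was 0.24 (SE 0.09, adjusted p = 0.0473). With no filter the change was the same and the call was lost (adjusted p = 0.0948).

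The 2 genes of chromosome structure fell alike. Topoisomerase II alpha (Top2a), which untangles sister chromatids, gave 1290, 2010 and 2710 units in IL3 and 491, 550 and 872 with SCF. Ki-67 (Mki67), which coats mitotic chromosomes and is the common marker of cycling cells, gave 1790, 2700 and 3530 against 720, 800 and 1060. No array of one group overlapped the other, and the falls were 1.72 (SE 0.17, adjusted p = 1.18e-05) and 1.60 (SE 0.16, adjusted p = 8.78e-06). The other kept probe set of Top2a gave -0.40 and did not pass.

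Taking probe sets instead of genes, 72 of the 100 passed the filter, and 64 of these were lower, 0 higher and 8 not past the threshold, against 13.6% of all 27167 kept probe sets lower. The 28 probe sets that did not pass the filter were not tested. Of 29 kept probe sets beside the one used for each gene, which lie in 22 genes, 24 were lower, and these lie in 19 genes. Since dim signals understate a change and a gene low in both groups is not tested, the count was also taken with no filter, where 39 of 44 were lower and 0 higher, with a median change of -1.47, against 9.18% of 18193 genes lower. Among the 43, 17 were dim on at least 1 IL3+SCF array, and Kif15 alone on any IL3 array. The 25 genes above the dim range on all 12 arrays include 24 of the genes that were lower.

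The arrays of one culture varied more among themselves for these genes than for most others. The median SD within a group was 0.36 (log2) in IL3 and 0.32 in IL3+SCF over the 43 genes, against 0.16 and 0.14 over all genes. IL3 replicate 1 was the highest IL3 array for 36 of the 43 genes, which it was for 17.9% of all genes, and IL3 replicate 4 the lowest for 35, which it was for 21.4%. Their median deviations from the IL3 mean were 0.51 and -0.55 over the 43 genes, and 0.02 and -0.03 over all genes. Among IL3+SCF arrays, replicates 3 and 1 were highest for 17 and 15 genes, and replicates 4 and 6 lowest for 19 and 13. The mean log2 value over the 43 genes was 9.36 ± 0.34 in IL3 (SD, n = 6; 8.80 to 9.85) and 8.02 ± 0.18 in IL3+SCF (SD, n = 6; 7.81 to 8.25), so that the lowest IL3 array, replicate 4, was still above the highest IL3+SCF array. With IL3 replicates 4 and 5 left out, 42 of 44 genes were lower, and with IL3 replicates 3 and 6 left out, 37 of 43.

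**Figure D4:**
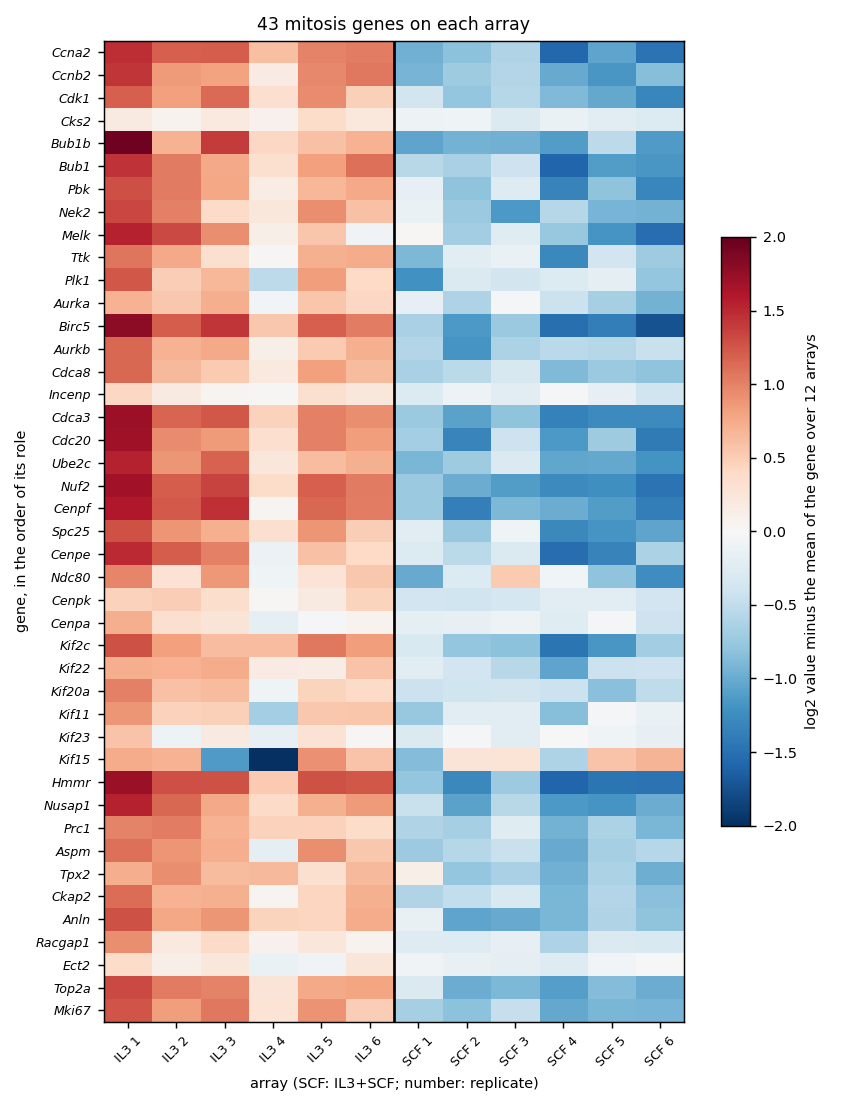
Log2 value of each of 43 mitosis genes (rows) on each of 12 arrays (columns), minus the mean of the gene over the 12 arrays; red is above that mean and blue below, and the black line parts IL3 from IL3+SCF. IL3 replicate 1 is the reddest column for most genes and IL3 replicate 4 the palest of the IL3 arrays, while Kif15 shows blue on IL3 replicates 3 and 4.

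Other genes of the same processes were read from lists chosen by function, with earlier results of these data known. Their counts stand beside the 16.6% of all genes that were lower and the 18.9% that were higher. Of 32 further kinetochore and checkpoint genes, 19 were lower (59.4%) and 3 higher (9.38%), with a median log2 change of -0.61. Kntc1, a subunit of the complex that brings dynein to kinetochores, fell by 1.72 from a median of 324 to 84 units. Its 2 groups were apart, and it was dim on 3 IL3+SCF arrays. Ska1, which tracks microtubule ends, gave 64.5, 167 and 212 units in IL3 and 7.11, 42.4 and 67.3 with SCF, dim on all 6 IL3+SCF arrays. It was at least 1.6-fold lower, and the fitted fall was 1.65. Ska1, too, passed the filter only through the IL3 arrays. Mis12, of the outer kinetochore platform, rose by 0.39 and Cenpt, an inner kinetochore protein, by 0.22. Of 18 genes of entry into mitosis, 10 were lower (55.6%) and 0 higher (median -0.56). Cdc25c, a phosphatase that activates CDK1, was dim on all 6 IL3+SCF arrays, at least 1.73-fold lower with a fitted fall of 1.89, and Cdkn3, a phosphatase of CDKs, fell by 1.84. Cdc25c also passed the filter only through the IL3 arrays. The transcription factor Foxm1 had a change of -0.59 and did not pass, and Mybl2, which encodes B-MYB, was dim on too many arrays to be tested.

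Of 24 genes of cohesin, condensin and separase, 11 were lower (45.8%) and 1 higher (median -0.18). The condensin subunit Ncapg fell by 1.82, from a median of 1370 to 425 units, and the cohesin acetyltransferase Esco2 by 1.59, from 2700 to 871. The cohesin subunit Rad21 rose by 0.28, while Smc1a and Smc3, the cohesin core, had changes of -0.08 and -0.07 and did not pass. Of 29 other mitotic motor and spindle genes, 15 were lower (51.7%) and 1 higher (median -0.27). Cep55, a midbody protein, fell by 2.11, and Spag5, a protein of spindle poles and kinetochores, by 1.52 (dim on 3 IL3+SCF arrays). The augmin subunit Haus8 rose by 0.49. Among 18 centrosome and centriole genes, 7 were lower (38.9%) and 1 higher (median -0.13). Stil and Plk4, which start centriole duplication, fell by 1.53 and 1.13, and Nedd1 rose by 0.24. Stil was dim on 5 of the 6 IL3+SCF arrays.

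The subunits and regulators of the anaphase-promoting complex itself, 17 genes, showed a median change of 0.01, with 3 lower and 2 higher. Its lower share of 17.6% was near the 16.6% of all genes. Fbxo5 (EMI1), an inhibitor of the complex, fell by 0.44 and Anapc15 by 0.35, and Fzr1 (CDH1), the activator used after mitosis and in G1, rose by 0.27 and Anapc2 by 0.22. A list of 15 genes, mostly kinesins of cargo transport, had a median of 0.18, with 2 lower (13.3%) and 4 higher (26.7%). Kif2a, which is related to Kif2c and is not a cargo motor, fell by 0.27. Kifap3 fell by 0.23, and Kif3c and Kif3a each rose by 0.57. Of 48 DNA replication genes, 35 were lower (72.9%) and 2 higher (median -0.51). Rrm2 and Tk1, which supply deoxynucleotides, fell by 2.05 and 2.02, with Tk1 dim on 2 IL3+SCF arrays. The licensing factor Cdc6 rose by 0.65 and Orc4, of the origin recognition complex, by 0.23. The differences between these lists were not tested.

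**Figure D5:**
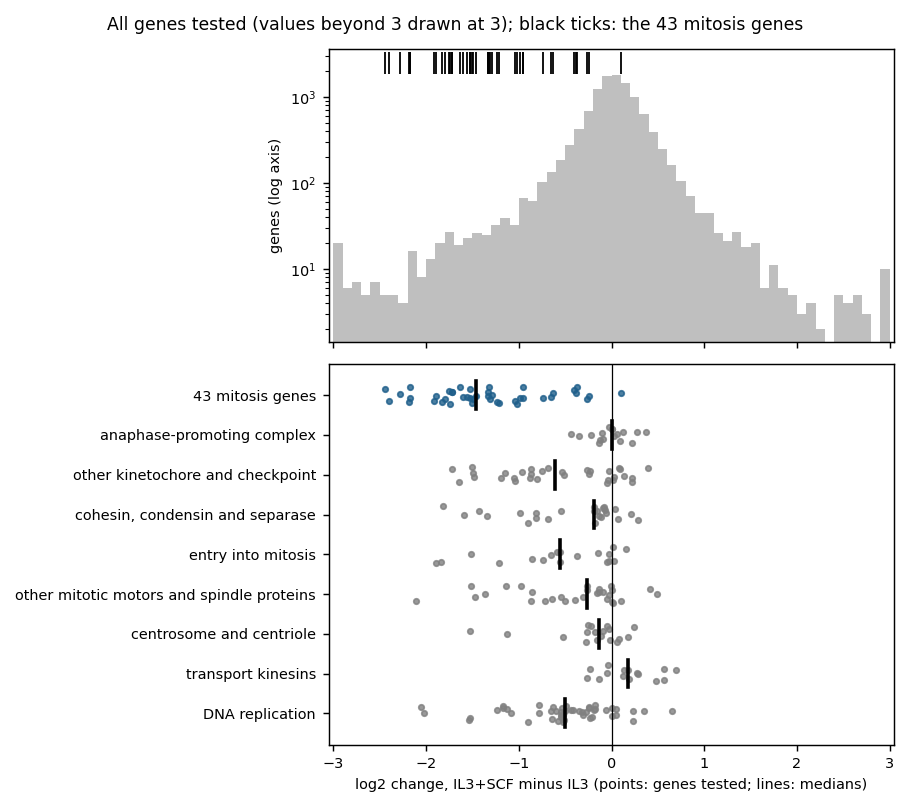
Above, the number of genes (log axis) by log2 change (IL3+SCF minus IL3) for all 11429 genes tested, with black ticks at the 43 mitosis genes. Below, the change of each tested gene in the mitosis set and in 8 lists of related function, with the median as a black line. The median was -1.46 for the mitosis genes and between -0.61 and 0.01 for the lists of division and replication genes. It was 0.18 for the list labelled transport kinesins, which holds Kif2a.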

How the data were processed

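RNA of 12 samples was measured on 12 single-colour Affymetrix arrays after whole-transcript amplification of 50 ng, per the labels' protocols. The deposited values are probe set intensities on a linear scale, with GCOS 1.4 named per the submitters' processing notes. How background was corrected is not given in the sources used here, nor is the scaling target. After trimming 2% at both ends, each array's mean was 1250.01, so the authors' values share a common scale. The annotation names 1 gene for 34945 of 45101 probe sets, several for 932 and none for 9160 (64 controls apart).

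The deposited intensities were taken as log2(intensity + 16), which understates changes of dim genes. Probe sets above the 40th percentile of the array on at least 6 arrays were kept (27167), and each gene was read from its kept single-gene probe set with the highest mean log2 value (11429 genes). A kept probe set that was dim on all 6 arrays of one group passed only through the other group, so its call is no separate support for a change. Such calls remain in the counts. The 2 groups were compared with limma 3.58.1 (lmFit and eBayes, two-sided, no covariates) in R 4.3.3, with Benjamini-Hochberg adjustment over all genes and a threshold of 0.05. At-least folds set the mean log2(intensity + 16) of the IL3 arrays against that of the IL3+SCF arrays. Dim IL3+SCF signals were first raised to the 40th percentile of their array. The genes and lists were chosen with earlier results of these data known. Named with full values were the 2 largest changes of each role and every gene that did not pass or was dim, and from each list at most 2 risen and 2 fallen genes. On simulated arrays, 70.1%, 97% and 95.5% of genes changed by 0.5, 1 and 2 (log2) were recovered, with 12 false calls among 11229. The simulated noise was independent for each gene and few genes were changed. The mitosis genes share array deviations, so these rates need not hold for them. Alternatives changed the normalization, pseudocount, filter, probe set and fit, and left out arrays. Promoter letters were searched on both strands of RefSeq windows (GRCm38.p6). Figures used matplotlib 3.10.9 in Python 3.11.15.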

Additional observations from a re-analysis of the deposited data

Results flagged for a closer look

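Within each group of 6 arrays, a sample was looked at again when its distance to the nearest other sample exceeded Dixon's 95% limit for 6 values as a share of the group's whole range. Of 86 groups (43 genes in 2 cultures) 7 met this, and chance alone gives about 1 in 20. Racgap1 stood out on 2 arrays: IL3 replicate 1 gave 478 units, with the next array at 324, and IL3+SCF replicate 4 gave 154, with the next at 195. IL3+SCF replicate 1 was high for Top2a, at 872 units with the next at 584, and for Tpx2, at 798 with the next at 473. IL3+SCF replicate 5 was high for Bub1b, at 112 with the next at 79.7, and low for Kif20a, at 137 with the next at 176. Aurkb gave 92 units on IL3+SCF replicate 2, with the next at 143. For none of these 6 genes did the array bring the 2 groups into overlap.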

How the results depend on the processing

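Over 26 alternatives, 36 of the 43 genes kept the direction and the call wherever they were tested. The count of lower mitosis genes was 37 to 43 of 43 or 44 tested, except under the 60th percentile filter, which tested 21 and left 20 lower. It was 38 to 43 with 1 array left out in turn, and 0 were higher under any alternative. Over all genes, 1365 were higher with median centring, against 2155, and the lower share of all calls went from 46.8% to 50.7%. Numbers did not pair the samples (same-number correlations -0.19 to 0.36, and 1 of 6 arrays closest to its own number). With the replicate block, 40 of 43 mitosis genes were lower, and 1747 genes were higher and 1579 lower. Kif15 turned to -0.17 without IL3 replicates 4 and 5 and to -0.02 without 3 and 6, and ranged from -0.31 to 0.29 with 1 array left out, without passing. The calls of Ect2, Cenpa and Kif11 were lost in 13, 12 and 8 of the 26 alternatives. That of Incenp was lost with the most variable probe set (-0.18, adjusted p = 0.608), and that of Ndc80 without IL3 replicates 3 and 6 (-0.84, adjusted p = 0.0924). Kif23 passed with quantile normalization (-0.30, adjusted p = 0.0452). The causes were not tested. Signals near background limit Cenpf, Kif4, Nek2, Melk and Kif2c, which were dim on 5 or 6 IL3+SCF arrays, and Bub1b, Nuf2 and Hmmr, which were dim on 4.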

Other observations

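Within the NDC80 complex, a grouping made after the values were seen, the change was -2.28 for Nuf2, -1.53 for Spc25, -1.51 for Spc24 (adjusted p = 2.51e-05) and -0.96 for Ndc80. Spc24, read from a list, gave 225, 276 and 387 units in IL3 and 57.1, 92.1 and 135 with SCF (dim on 2 arrays).

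Promoter letters were also set beside the calls, as a description added after the data were seen. The 28 tested mitosis genes with CHR letters had a median log2 change of -1.33, and the 9 with a window but no CHR letters had -1.53, all 9 of them lower. Among tested genes outside the set, 635 have both CHR and CCAAT letters, and 20.5% of these were lower and 16.7% higher. Of the 4617 with neither, 14.6% were lower and 20.6% higher. When genes of the lists of division and replication were also left out, 607 genes with both letters remained, of which 17.8% were lower and 17.5% higher, with a median change of 0.00.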
